A study of Mus musculus with 24 samples.

Results

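The effect of a Western diet (WD) on the liver transcriptome was measured in mice labelled as knockout (KO) for Mrs2, by setting 3 livers of KO mice on WD against 3 livers of KO mice on chow. All genes with a mean of at least 0.5 FPKM over the 12 liver libraries of the series were included, which gave 14019 of the 54532 genes in the table, and the 6 livers are 6 of its 24 libraries. FPKM scales sequenced fragments by gene length and by a size for each library, which here was not the plain read total. It can be compared between genes of a library. By label, the KO WD and KO chow groups differed in diet alone, and both carried the Mrs2 knockout. Mice of WT genotype on WD and on chow, 3 livers each, were used for comparison. Diets started at 13 weeks of age and lasted 52 weeks, and RNA came from 50 mg of the frozen, crushed whole organ. The sources used here do not give how the Mrs2 allele was made, in which cells it was deleted, the mouse strain or the make-up of the WD. Each group held 3 mice, described as biological replicates.

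MRS2 lets magnesium into the mitochondrial matrix through the inner membrane, and the series asks how mitochondrial magnesium shapes metabolism under an obesogenic diet. The liver makes cholesterol from acetyl-CoA through the mevalonate and sterol pathway. When membranes of the endoplasmic reticulum are poor in sterol, the transcription factor SREBP2 is cut free and turns on the enzymes of this pathway, and when they are rich in sterol it is held back by Insig proteins. Oxidised sterols activate the nuclear receptor LXR, which turns on exporters such as ABCG5 and ABCG8, a pair of half-transporters that together move sterol into bile.

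Several of the largest called falls and rises on WD belonged to these opposite arms, and the stretches before their transcription starts are shown because they are the regulatory DNA nearest to genes that moved together. They come from RefSeq promoters on GRCm38.p6, the assembly also called mm10, and were chosen after the expression values were seen. The 100 bases before the start of 5 enzymes of cholesterol synthesis that fell are given on the strand of the gene, with each CCAAT box, read on either strand, in capitals. CCAAT is the site of NF-Y, a factor known to act together with SREBP2.
Idi1 (chr13:8885506-8885605, plus strand): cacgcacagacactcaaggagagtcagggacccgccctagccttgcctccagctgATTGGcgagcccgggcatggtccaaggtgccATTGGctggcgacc
Msmo1 (chr8:64733579-64733678, minus strand): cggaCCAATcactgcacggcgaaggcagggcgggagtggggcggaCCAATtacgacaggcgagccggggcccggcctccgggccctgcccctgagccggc
Nsdhl (chrX:72918421-72918520, plus strand): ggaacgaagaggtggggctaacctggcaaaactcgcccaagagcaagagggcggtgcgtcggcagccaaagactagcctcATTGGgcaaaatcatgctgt
Cyp51 (chr5:4104698-4104797, minus strand): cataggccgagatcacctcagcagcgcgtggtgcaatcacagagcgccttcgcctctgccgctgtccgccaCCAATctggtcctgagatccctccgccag
Tm7sf2 (chr19:6067851-6067950, minus strand): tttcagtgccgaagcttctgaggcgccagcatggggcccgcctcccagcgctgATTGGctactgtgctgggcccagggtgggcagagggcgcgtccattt
In the 250 bases before the start, 14 of the 15 cholesterol synthesis genes with a RefSeq promoter held CCAAT on either strand. The share was 40.3% of the 9608 tested genes with a promoter and 37.5% of all 27025 genes there. All 6 of those that fell by the test and have a promoter there held it. The sterol regulatory element, searched as TCACNCCAC on either strand, was matched in 1 of the 15 (Hmgcs1, beginning 137 bases before the start and not overlapping its CCAAT matches). It was matched in 0 of the 6, in 1.35% of the tested genes and in 1.22% of all genes. Stretches around this element were to be printed, and CCAAT boxes are shown because none of the 6 held it. A match describes the letters of this window and shows no binding, and its absence shows nothing about SREBP2.

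Abcg5 and Abcg8, the sterol exporter genes that rose, lie head to head on chromosome 17 and are read outward from starts 110 bases apart. The 109 bases between the starts (chr17:84683012-84683120, plus strand) hold neither motif.
Abcg5-Abcg8: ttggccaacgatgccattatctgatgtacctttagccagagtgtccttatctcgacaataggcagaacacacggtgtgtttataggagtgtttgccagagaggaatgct

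The 12 liver libraries held 14.7 to 19.5 M recovered reads, and the 6 KO livers covered that same range. Mrs2 (chromosome 13, 24987483 to 25020379, minus strand) did not mark the WD livers by label. It stood at 4.102, 5.21 and 4.21 FPKM in the KO WD livers and 3.896, 4.47 and 4.16 in the KO chow livers, against 5.104, 4.096 and 5.11 in WT WD livers and 6.26, 5.87 and 6.501 in WT chow livers. On chow the KO livers were all below the WT livers, and on WD the groups overlapped, so directions below are those of livers labelled KO or WT. Recovered reads of Mrs2, not scaled for depth, overlapped on WD too, at 394, 541 and 377 in KO livers and 625, 504 and 630 in WT livers. That overlap lay between the replicate 2 livers alone. The size that FPKM divides by was 0.798 to 0.828 of the recovered reads in KO WD livers and 0.980 to 1.07 in WT WD livers. This lowers the FPKM of WT WD livers relative to their reads. Diet did not move Mrs2 past the threshold in livers labelled KO (log2 fold change 0.086 ± 0.10, SE, n = 3 per group, limma adjusted p = 0.735). Whether part of the transcript is lost cannot be read from this whole-gene value, and 32.4% of its exonic bases are shared with Gpld1 on the opposite strand, which stood at 61.4 ± 8.64 FPKM in KO WD and 65.6 ± 1.804 in KO chow livers (SD, n = 3 each). Acinar genes of the pancreas were high in KO chow replicate 1 (summed level 2301 FPKM over 13 markers, against 13.9 to 24.5 in the other 5 KO livers), and genes of skeletal muscle in KO WD replicate 2 (85.3 FPKM over 10 markers, against 0.760 to 27.3). No gene of either list was called.

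Across all genes, 59 of 14019 (0.421%) differed between diets in livers labelled KO by limma at an adjusted p under 0.05, which is what "called" means below. Of these, 21 were higher on WD (0.15% of all genes) and 38 lower (0.271%), and 11 of the rises and 28 of the falls had a log2 fold change of at least 1 in size. The log2 fold change is WD minus chow on the log2(FPKM + 1) scale, which understates changes of genes near 0. Its median over all genes was 0.012. The 3 values on WD lay wholly above the 3 on chow in 14.2% of all genes and wholly below in 12.5%, and all 59 called genes were of these. DESeq2 on the recovered reads called 633 genes, 280 higher and 353 lower, among them 58 of the 59. In bulk tissue, fewer cells of a type and less RNA per cell cannot be told apart. In 21 of the 59 the call held without any one of the 6 KO livers. Without KO WD replicates 1, 2 or 3 the count was 29, 53 or 24, and without KO chow replicates 1, 2 or 3 it was 28, 36 or 27. Without WT chow replicate 1, which enters only through the shared estimate of the spread, it was 136.

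**Figure D1:**
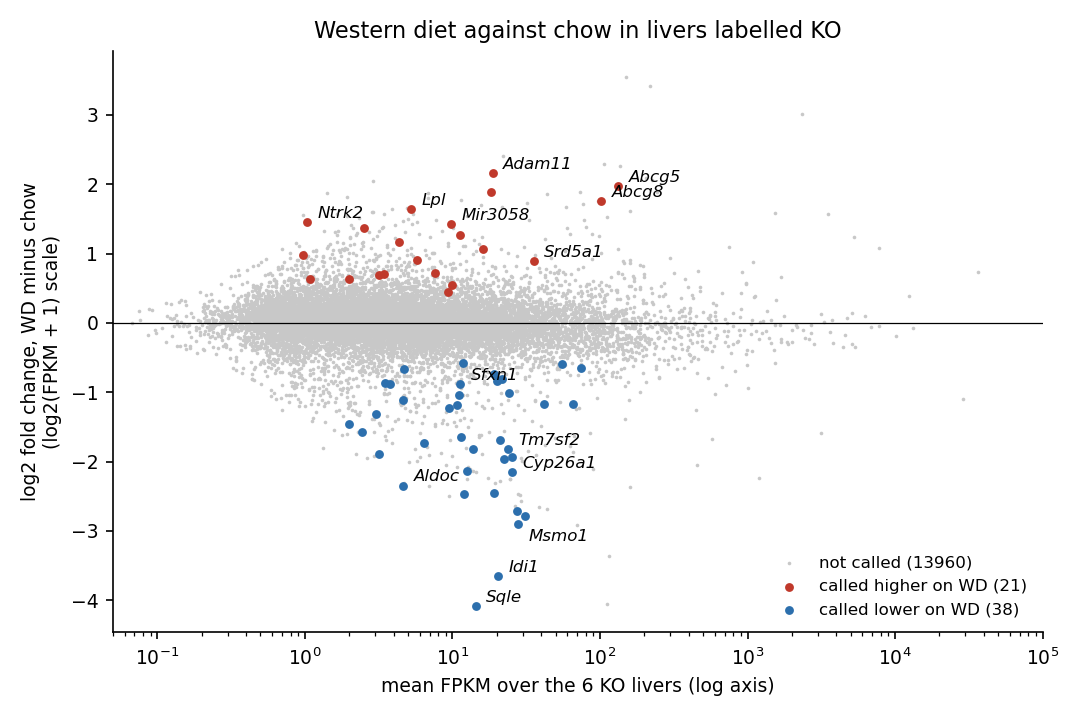
Log2 fold change of WD over chow in livers labelled KO (vertical axis) against the mean FPKM over the 6 KO livers (horizontal log axis), 1 point per gene. The 21 genes called higher on WD are red and the 38 called lower are blue, with Sqle and Idi1 lowest and Adam11, Abcg5 and Abcg8 at the top of the called genes.

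Enzymes of cholesterol synthesis were lower on WD. All 20 listed enzymes had a log2 fold change below 0. Of them, 8 were called lower and 0 higher, against 0.271% and 0.15% of all genes. Without overlap 18 were lower, against 12.5% of all genes. The list's median was -1.55, against 0.012 over all genes. Summed over the 20 enzymes, the level was 433 to 535 FPKM in KO WD livers and 907 to 1411 FPKM in KO chow livers. The 12 that were not called ranged in log2 fold change from -2.50 (Mvd) to -0.15 (Ebp).

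Sqle, squalene epoxidase, which adds the first oxygen on the way to the sterol ring, had the largest fall of any gene tested. It stood at 0.544, 0.768 and 0.599 FPKM in KO WD livers and 41.9, 19.04 and 23.7 in KO chow livers, a level 44.3 times lower on WD by group means, and its log2 fold change was -4.08 ± 0.38 (SE, adjusted p = 0.00149 by limma). The spread among chow livers was wide, but every one was far above every WD liver. Idi1, the isomerase that makes the pathway's reactive isoprene unit, stood at 1.83, 2.24 and 2.14 FPKM on WD and 51.7, 30.98 and 32.8 on chow (-3.65 ± 0.44, adjusted p = 0.00611). Pmvk, phosphomevalonate kinase, stood at 9.82, 8.15 and 10.6 on WD and 59.7, 35.1 and 28.4 on chow (-1.94 ± 0.34, adjusted p = 0.045). In each of these the chow liver of replicate 1 was the highest of the 6.

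Late steps, which trim lanosterol to cholesterol, fell as well. Cyp51, the lanosterol demethylase, stood at 6.77, 6.29 and 7.52 FPKM on WD and 75.2, 49.7 and 39.4 on chow (-2.78 ± 0.39, adjusted p = 0.0149). Msmo1, the sterol methyl oxidase that acts after it, stood at 4.58, 6.47 and 6.07 on WD and 65.2, 42.7 and 41.9 on chow (-2.91 ± 0.31, adjusted p = 0.00277). Nsdhl, the next enzyme in that demethylation, stood at 4.89, 4.43 and 5.73 on WD and 46.5, 29.9 and 22.97 on chow (-2.45 ± 0.31, adjusted p = 0.00736). In these 3 genes the groups lay far apart, with the highest WD liver well below the lowest chow liver. Tm7sf2, a sterol reductase, stood at 9.74, 9.33 and 10.5 on WD and 40.8, 40.5 and 31.6 on chow, with little spread within either diet (-1.82 ± 0.16, adjusted p = 0.00149). A smaller difference was seen in a later enzyme. Ebp, the sterol isomerase, overlapped between diets at 79.99, 90.7 and 90.7 FPKM on WD and 102, 108 and 82.3 on chow (-0.15 ± 0.15, adjusted p = 0.661).

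The calls of Sqle, Idi1, Msmo1, Nsdhl and Tm7sf2 held without any one KO liver. Those of Cyp51 (adjusted p up to 0.0681) and Pmvk (adjusted p up to 0.138) ended without 4 and all 6 of them in turn. Among those left out was KO chow replicate 1, the library with high acinar genes. The count of 8 was 6 or 7 without any one KO liver, 12 without WT chow replicate 1, and 17 with DESeq2 on the recovered reads. DESeq2 called 353 of the 13949 genes it tested lower. Of the exonic bases of Fdps and Fdft1, which were not called, 26.7% and 18.3% are shared with other genes.

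**Figure D2:**
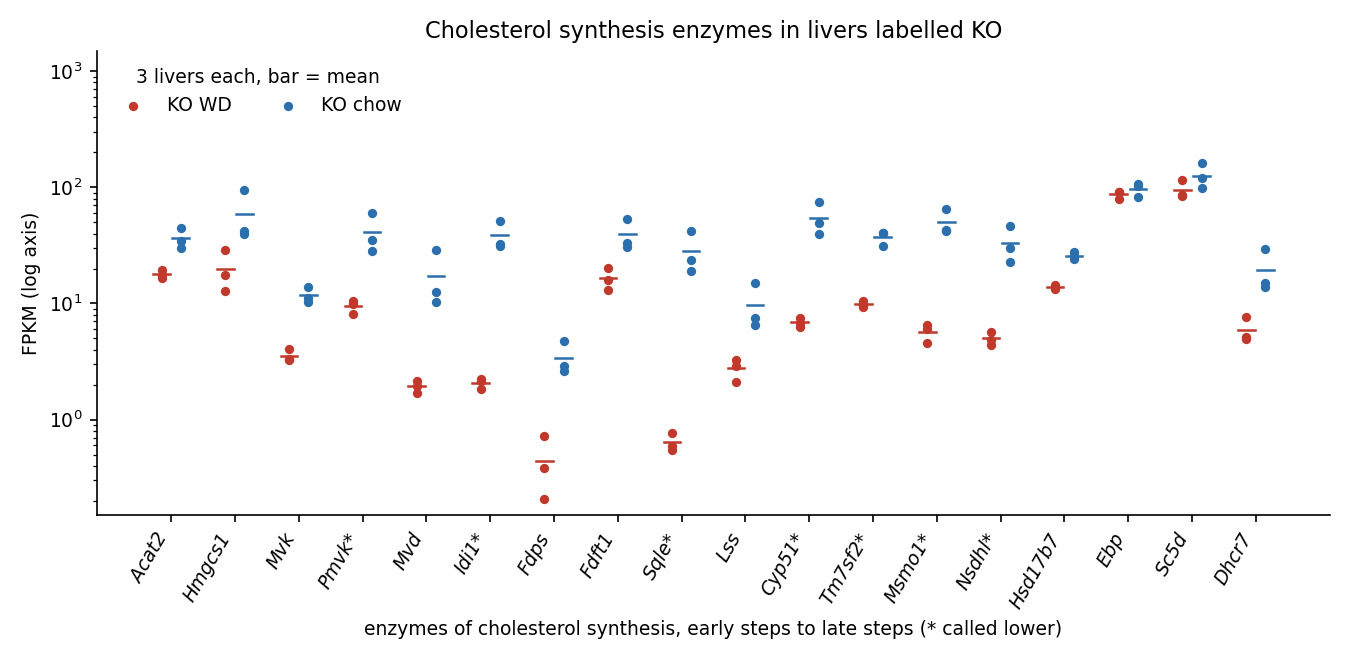
FPKM (log axis) of 18 cholesterol synthesis enzymes in each of the 3 KO WD livers (red, left in each pair) and the 3 KO chow livers (blue, right), with bars at the means, ordered from early to late steps. Asterisks mark the 7 of them called lower, and the diets lie closest in Ebp and Sc5d near the end of the pathway.

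Genes around SREBP2 and cholesterol uptake lay in both directions, with 0 of 12 called (list median -0.23). Without overlap 4 were higher and 4 lower, against 14.2% and 12.5% of all genes. Srebf2, which encodes SREBP2, stood at 8.06, 8.27 and 8.31 FPKM on WD and 15.4, 12.2 and 15.5 on chow (-0.73 ± 0.18, adjusted p = 0.125). It was lower in all 3 WD livers without passing the threshold. Of the sterol sensors that hold SREBP2 back, Insig1 overlapped between diets (-0.85 ± 0.45, adjusted p = 0.388) and Insig2 was higher in every WD liver, at 127, 61.6 and 174 FPKM on WD and 39.5, 34.4 and 26.7 on chow (1.72 ± 0.54, adjusted p = 0.188).

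Sterol export genes lay on the other side. All 12 genes of the list of sterol export, esterification and LXR targets had a log2 fold change above 0 (list median 0.44). Without overlap 11 were higher, against 14.2% of all genes. Called higher were 0.15% of all genes and 2 of the list. These were the paired exporters whose shared upstream stretch is printed above. Abcg5 stood at 201, 232 and 203 FPKM in KO WD livers and 52.2, 60.8 and 47.7 in KO chow livers, 3.96 times higher by group means (1.97 ± 0.14, adjusted p = 0.000638, the smallest of all genes). Abcg8 stood at 157, 165 and 152 on WD and 51.3, 49.7 and 38.2 on chow, 3.404 times higher (1.76 ± 0.16, adjusted p = 0.00149). Their groups lay far apart, and both calls held under all 22 alternatives. The pair shares 82 of the 2712 exonic bases of Abcg5.

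Other LXR targets were higher by less and were not called. Abcg1, which exports cholesterol to lipoproteins, stood at 4.49, 6.45 and 4.86 on WD and 2.58, 1.99 and 1.74 on chow (1.01 ± 0.24, adjusted p = 0.117). Scarb1, the receptor that takes cholesterol up from high-density lipoprotein, stood at 45.2, 37.8 and 30.6 on WD and 20.6, 20.7 and 28.1 on chow (0.68 ± 0.17, adjusted p = 0.121). Abca1, the exporter that loads apolipoprotein A-I, stood at 53.3, 51.2 and 48.9 on WD and 36.1, 34.03 and 37.03 on chow (0.51 ± 0.16, adjusted p = 0.196). In all 3 every WD liver was above every chow liver. The LXR gene Nr1h3 overlapped (0.14 ± 0.11, adjusted p = 0.581).

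Called too were 3 genes with known ties to sterols, which lie outside these lists and were picked after their values were seen. Lbr, the lamin B receptor, which is also a sterol reductase, stood at 2.1996, 2.39 and 1.88 FPKM on WD and 5.42, 4.501 and 4.41 on chow (-0.87 ± 0.093, adjusted p = 0.00277). Tmem97, a membrane protein that binds the cholesterol transporter NPC1, stood at 34.4, 48.9 and 37.7 on WD and 103, 91.1 and 81.1 on chow (-1.17 ± 0.18, adjusted p = 0.0233). Gramd1b, which carries cholesterol from the plasma membrane to the endoplasmic reticulum, was low but higher on WD in every liver, at 1.65, 1.41 and 1.7995 against 0.278, 0.284 and 0.432 on chow (0.98 ± 0.11, adjusted p = 0.00456). The calls of Lbr and Gramd1b held without any one KO liver, and that of Tmem97 ended without any of 5 of them (adjusted p up to 0.112).

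Lipid handling beyond sterols gave 1 call. Lpl, lipoprotein lipase, which frees fatty acids from circulating triglyceride and is low in healthy adult liver, stood at 6.095, 10.3 and 8.88 FPKM on WD and 1.97, 1.45 and 2.56 on chow (1.65 ± 0.25, adjusted p = 0.0264). It was the only called member among 20 genes of lipid droplets and lipid uptake, of which 18 had a log2 fold change above 0. Its call ended without any of 5 of the 6 KO livers (adjusted p 0.0582 to 0.122), all but KO WD replicate 1. Lipid droplet coat Plin2 overlapped, at 128, 112 and 267 on WD and 108, 113 and 67.1 on chow (0.74 ± 0.34, adjusted p = 0.335).

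Fatty acid synthesis genes split, with 0 of 21 called. Scd1, the desaturase that makes oleate, stood at 4473, 4207 and 6624 FPKM on WD and 2753, 2016 and 851 on chow (1.57 ± 0.40, adjusted p = 0.13). Acss2, which makes acetyl-CoA from acetate, stood at 12.1, 10.3 and 12.2 on WD and 48.3, 34.04 and 15.8 on chow (-1.30 ± 0.37, adjusted p = 0.159). The diets did not overlap in either gene, and the differences had opposite signs. Of 27 genes of fatty acid oxidation and ketone synthesis none was called, 20 were above 0, and the median was 0.16. Fgf21, a fasting and stress hormone made by the liver, had the highest log2 fold change among them and stood at 5.42, 3.63 and 9.58 on WD and 1.47, 2.504 and 1.84 on chow (1.23 ± 0.33, adjusted p = 0.148). Lpin1, a phosphatidate phosphatase of triglyceride synthesis, stood at 4.69, 11.8 and 6.69 on WD and 22.4, 39.4 and 62.7 on chow (-2.25 ± 0.44, adjusted p = 0.0714).

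Nuclear genes of oxidative phosphorylation were lower by a small amount, with 63 of 64 below 0 and a median of -0.24. Without overlap 41 were lower and 0 higher, against 12.5% and 14.2% of all genes. Called lower were 2, both accessory subunits of complex I, against 0.271% of all genes. Ndufb9 stood at 53.8, 53.4 and 67.04 FPKM on WD and 85.3, 97.1 and 90.5 on chow (-0.65 ± 0.10, adjusted p = 0.0323), and Ndufc2 at 41.9, 47.7 and 41.5 on WD and 66.1, 66.5 and 66.5 on chow (-0.59 ± 0.094, adjusted p = 0.0293). Summed over the 64 subunits, the level was 5706 to 6376 FPKM in KO WD livers and 6801 to 7843 in KO chow livers, without overlap. Of the 13 subunits encoded by mitochondrial DNA, 8 were below 0 and 5 above, 0 were called and the median was -0.037. Both complex I calls ended without any of 5 of the KO livers (adjusted p up to 0.131). DESeq2 called 15 of the 64 lower, against 353 of the 13949 genes it tested. Of the exonic bases of Ndufb9, 19.5% are shared with Gm49356 on the same strand.

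Among transporters of magnesium and mitochondrial calcium, the list closest to Mrs2 itself, 0 of 19 were called. Mcu, the pore of the mitochondrial calcium uniporter, stood at 4.14, 3.08 and 4.65 FPKM on WD and 1.88, 2.07 and 1.98 on chow (0.72 ± 0.18, adjusted p = 0.122), and its regulator Micu3 at 0.606, 0.585 and 0.484 on WD and 0.9601, 1.07 and 0.971 on chow (-0.36 ± 0.10, adjusted p = 0.156). Cnnm3, of a family of magnesium transport mediators, stood at 3.68, 4.71 and 4.44 on WD and 3.35, 3.02 and 2.73 on chow (0.39 ± 0.14, adjusted p = 0.224). The diets did not overlap in these 3 genes.

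Lower on WD were also 3 called genes of mitochondria and coenzyme A synthesis that were picked after their values were seen. Sfxn1, the mitochondrial serine transporter, stood at 7.05, 8.08 and 7.83 FPKM on WD and 15.2, 14.4 and 15.2 on chow (-0.88 ± 0.073, adjusted p = 0.00142). Pank3, a kinase of coenzyme A synthesis, stood at 13.3, 14.3 and 14.6 on WD and 22.5, 24.1 and 25.6 on chow (-0.73 ± 0.093, adjusted p = 0.00736). Both had narrow ranges within each diet and held their calls without any one KO liver. Etfbkmt, which methylates an electron transfer flavoprotein in mitochondria, stood at 19.6, 14.6 and 13.4 on WD and 36.9, 31.2 and 29.7 on chow (-1.004 ± 0.14, adjusted p = 0.016), and its call ended without 4 of the KO livers in turn (adjusted p up to 0.0784).

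Further falls covered several metabolic genes. Aldoc, a fructose-bisphosphate aldolase best known from brain, stood at 0.778, 0.8105 and 0.939 FPKM on WD and 9.67, 8.27 and 7.28 on chow (-2.35 ± 0.21, adjusted p = 0.00149). Cyp26a1, which breaks down retinoic acid, stood at 7.34, 10.7 and 6.58 on WD and 63.8, 25.4 and 37.1 on chow (-2.15 ± 0.32, adjusted p = 0.0217). It was the 1 called gene of 26 cytochromes P450 of drug and steroid breakdown, whose median was -0.35. Cyp3a11, a main enzyme of drug oxidation in mouse liver, varied more, at 152, 264 and 453 on WD and 928, 1011 and 635 on chow (-1.67 ± 0.42, adjusted p = 0.13). Tstd1, a thiosulfate sulfurtransferase, stood at 3.48, 6.1004 and 7.26 on WD and 23.9, 25.5 and 16.5 on chow (-1.82 ± 0.27, adjusted p = 0.0232), with 23.1% of its exonic bases shared with Usf1. Ccl9, a chemokine of the CC family, stood at 11.2, 10.7 and 6.401 on WD and 35.6, 22.4 and 39.9 on chow (-1.69 ± 0.29, adjusted p = 0.0437). The calls of Cyp26a1, Tstd1 and Ccl9 ended without 3, 3 and 5 of the KO livers in turn (adjusted p up to 0.105, 0.0992 and 0.162), and that of Aldoc held without any one.

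Noct, a rhythmically expressed phosphatase of NADP(H) once described as a deadenylase, stood at 4.27, 3.57 and 3.81 FPKM on WD and 19.6, 15.1 and 28.95 on chow (-2.14 ± 0.35, adjusted p = 0.0334), and its call ended without any one KO liver (adjusted p up to 0.135). Of 18 circadian clock genes 0 were called, and 13 were below 0. Some differed beside Noct without being called. Nr1d1, a repressor of the clock, stood at 57.2, 43.2 and 46.9 on WD and 22.5, 8.07 and 14.9 on chow (1.73 ± 0.63, adjusted p = 0.236), and Per2, a core clock gene, at 3.69, 13.7 and 3.81 on WD and 15.3, 17.5 and 18.1 on chow (-1.38 ± 0.51, adjusted p = 0.244). KO WD replicate 2 stood closer to the chow livers than the other WD livers did in Per2. The sources used here do not give the hour of tissue collection, and its part in these values was not tested.

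Fam47e and Smim22 were lower on WD too. Fam47e stood at 7.11, 13.2 and 6.01 FPKM on WD and 45.98, 28.5 and 33.8 on chow (-1.97 ± 0.34, adjusted p = 0.042, ended without 5 of the KO livers, adjusted p up to 0.157, and with edgeR, adjusted p = 0.057). Smim22, a micropeptide known from human breast cancer cells to bind squalene epoxidase, stood at 0.283, 1.44 and 0.759 on WD and 6.37, 4.81 and 5.56 on chow (-1.89 ± 0.23, adjusted p = 0.0065), which rested on 2 to 11 recovered reads per WD liver and 34 to 48 per chow liver. Both genes had 1 WD liver, replicate 2, nearer to chow than the others.

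Among the rises, Adam11 led with a log2 fold change of 2.16 ± 0.21 (adjusted p = 0.00165). This catalytically inactive member of the ADAM family, known from neurons, stood at 30.7, 34.97 and 27.97 FPKM on WD and 9.01, 5.12 and 5.02 on chow, 4.89 times higher by group means. Slc17a4, an organic anion transporter that carries urate, stood at 15.6, 13.3 and 20.5 on WD and 6.32, 7.04 and 5.13 on chow (1.27 ± 0.17, adjusted p = 0.0125). Sulf2, a heparan sulfate sulfatase of the cell surface, stood at 4.72, 6.53 and 7.89 on WD and 2.13, 2.85 and 1.84 on chow (1.16 ± 0.20, adjusted p = 0.0449). Ntrk2, the receptor for brain-derived neurotrophic factor and a gene picked after its values were seen, stood at 1.83, 2.35 and 1.76 on WD and near 0, at 0.0524, 0.119 and 0.0673, on chow (1.46 ± 0.14, adjusted p = 0.00155). Its recovered reads were 400 to 616 in KO WD livers and 13 to 29 in KO chow livers. The calls of Adam11 and Ntrk2 held without any one KO liver, and those of Slc17a4 and Sulf2 ended without 3 and 5 of them (adjusted p up to 0.0632 and 0.164).

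Regulators and enzymes rose by smaller amounts. Cited2, a transcriptional co-regulator that restrains hypoxia signalling, stood at 19.6, 21.3 and 25.6 FPKM on WD and 9.71, 9.66 and 10.8 on chow (1.06 ± 0.13, adjusted p = 0.00547). Srd5a1, the steroid 5-alpha-reductase that clears steroid hormones in liver, stood at 45.4, 48.1 and 45.8 on WD and 24.7, 25.1 and 24.1 on chow (0.89 ± 0.12, adjusted p = 0.00946). Within each diet the 3 livers of Srd5a1 differed by little, and 16.4% of its exonic bases are shared with Gm17108. Cbx2, a Polycomb protein, stood at 3.84, 4.97 and 4.78 on WD and 2.19, 2.63 and 2.33 on chow (0.70 ± 0.12, adjusted p = 0.0441). Tnfaip8l1 (0.91 ± 0.16), Trim14 (0.72 ± 0.12), Dcakd (0.55 ± 0.084) and Jmjd8 (0.44 ± 0.075) were also called higher, with adjusted p from 0.0238 to 0.0406. Of the exonic bases of Trim14 and Jmjd8, 38% and 39.3% are shared with other genes. Cited2 held its call without any one KO liver, Srd5a1 lost it without KO WD replicate 3 or KO chow replicate 3 (adjusted p 0.052 to 0.0573), and the other 5 lost it without 4 to 6 of the livers (adjusted p up to 0.168).

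The other 21 called genes that are neither named above nor by the rule on size were 5 rises and 16 falls. Ropn1l, a sperm flagellum protein, stood at 5.64, 4.76 and 4.803 FPKM on WD and 18.8, 20.1 and 14.996 on chow (-1.64 ± 0.16, adjusted p = 0.00155). Mpv17l, a protein of peroxisomes and mitochondria, stood at 5.38, 6.21 and 4.32 on WD and 14.1, 14.6 and 12.4 on chow (-1.23 ± 0.14, adjusted p = 0.00456), and Scpep1, a lysosomal carboxypeptidase, at 14.6, 15.8 and 15.99 on WD and 31.5, 23.8 and 28.2 on chow (-0.80 ± 0.10, adjusted p = 0.00788). The calls of these 3, picked after their values were seen, held without any one KO liver. Slc3a2, the heavy chain of an amino acid transporter, Cryl1, Capn10, Zfp445, Epop, Ctnnbip1 and Raet1e fell by 0.57 to 1.57 on the log2 scale, and Maged2 rose by 0.64. These 8 calls ended without 3 to 6 of the KO livers in turn (adjusted p up to 0.151). The remaining 10 bear clone or model names, and 3 of them are processed pseudogenes, whose reads can come from their parent genes.

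The row listed as Mir3058, a microRNA hairpin of 91 bases inside an intron of Nudt4 (chromosome 10, 95559231 to 95559321, minus strand), stood at 16.6, 14.5 and 13.1 FPKM on WD and 5.13, 4.36 and 4.995 on chow (1.43 ± 0.17, adjusted p = 0.00547). It rested on 14 to 19 recovered reads per WD liver and 5 to 7 per chow liver, and edgeR on those reads did not call it (adjusted p = 0.0805). Reads from poly-T selected RNA over a hairpin do not measure the mature microRNA, and Nudt4 on the same strand stood at 0.30 ± 0.12 (adjusted p = 0.26). The mature sequences are given with the seed, bases 2 to 8, in capitals.
mmu-miR-3058-5p: uCAGCCACggcuuaccuggaaga
mmu-miR-3058-3p: uUCCUGUCagccgugggugcc

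**Figure D3:**
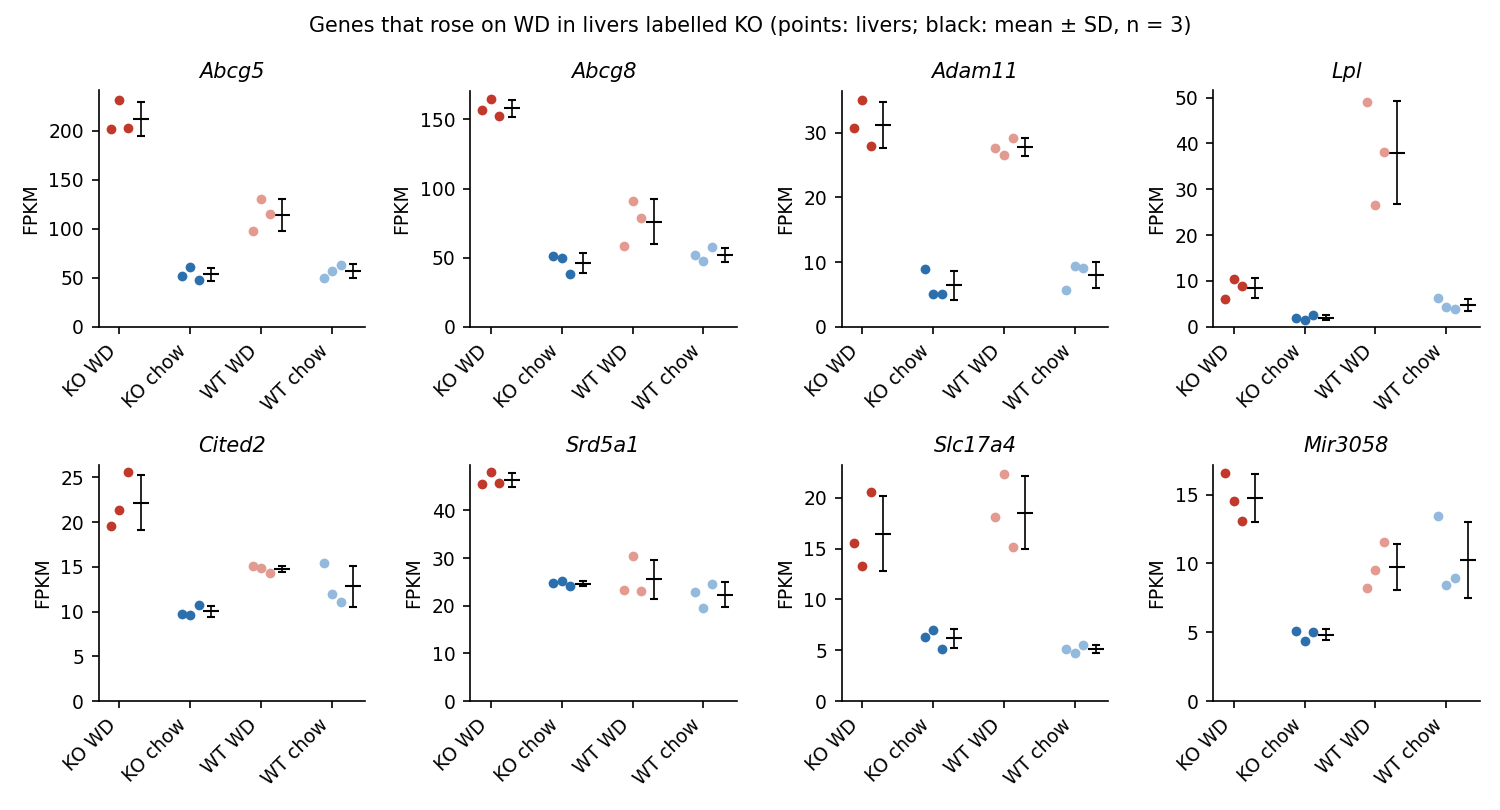
FPKM of 8 genes called higher on WD in livers labelled KO, with 1 point per liver and the mean ± SD (n = 3) in black, in the order KO WD, KO chow, WT WD, WT chow. Every KO WD liver lies above every KO chow liver in all 8 panels, and Lpl reaches 6.10 to 10.3 FPKM in KO WD livers against 26.6 to 49.0 FPKM in WT WD livers.

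Markers of other cell types gave 1 call among the macrophage, stellate, duct, endothelial, lymphocyte and neutrophil lists, which was Lpl. Of 16 markers of lipid-associated macrophages, 2 were higher without overlap, against 14.2% of all genes, and the median was 0.31. Gpnmb stood at 0.0731, 0.778 and 0.862 FPKM on WD and 0.3699, 0.0975 and 0.189 on chow (0.33 ± 0.33, adjusted p = 0.667), and Trem2 at 0.225, 1.08 and 0.4302 on WD and 0.0786, 0.209 and 0.407 on chow (0.33 ± 0.29, adjusted p = 0.612). Both defining markers of these cells, a membrane glycoprotein and a lipid receptor, were near or below 1 FPKM in all 6 KO livers, and the diets overlapped. None of the 16 was at 0 in any KO liver, and their summed level was 279 to 377 FPKM on WD and 247 to 292 on chow.

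Markers of Kupffer cells and monocytes were higher without overlap in 9 of 15, against 14.2% of all genes, with 0 called and a median of 0.32. Cd5l, a scavenger protein of Kupffer cells, stood at 96.4, 146 and 106 FPKM on WD and 58.8, 59.1 and 61.8 on chow (0.92 ± 0.35, adjusted p = 0.255). Summed over the 15 markers, the level was 320 to 424 FPKM on WD and 264 to 301 on chow. Extracellular matrix genes were higher without overlap in 18 of 29, with 0 called and a median of 0.30. Col4a1, a basement membrane collagen, stood at 6.33, 5.45 and 7.02 on WD and 3.45, 3.34 and 2.98 on chow (0.77 ± 0.23, adjusted p = 0.181), and Col3a1, a fibrillar collagen of scar tissue, at 2.78, 3.72 and 6.001 on WD and 1.702, 1.85 and 1.42 on chow (0.92 ± 0.33, adjusted p = 0.232). DESeq2 called 7 of the 29 matrix genes higher, against 280 of the 13949 genes it tested. With edgeR 1 of the 29 was called higher, and with library weights in limma also 1. Endothelial markers were higher without overlap in 6 of 16, led by the scavenger receptor Stab2 at 18.1, 12.2 and 17.1 on WD and 9.88, 9.51 and 7.04 on chow (0.77 ± 0.16, adjusted p = 0.0779).

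Hepatocyte markers were lower without overlap in 8 of 20, against 12.5% of all genes, with 0 called and a median of -0.18. Alb, albumin, stood at 15165, 17541 and 23324 FPKM on WD and 38816, 44254 and 35458 on chow (-1.10 ± 0.25, adjusted p = 0.102). The summed level of the 20 markers was 53960 to 63320 FPKM in KO WD livers and 79090 to 89500 in KO chow livers. Alb made up much of that sum and of its difference between diets. On the log2(FPKM + 1) scale the mean of the 20 was 10.23 to 10.27 in KO WD livers and 10.41 to 10.57 in KO chow livers. None was at 0 in any liver. These values were lower beside the falls of cholesterol synthesis and oxidative phosphorylation genes, and their part in those falls was not tested. Of 24 urea cycle and amino acid genes 0 were called. Without overlap 5 were higher and 9 lower, against 14.2% and 12.5% of all genes. Asl, the argininosuccinate lyase of the urea cycle, stood at 76.7, 136 and 83.02 on WD and 163, 187 and 294 on chow (-1.12 ± 0.25, adjusted p = 0.0956). Interferon-induced genes were above 0 in 18 of 20, 8 without overlap (14.2% of all genes), with 0 called and a median of 0.41. Heat shock genes were lower without overlap in 6 of 12 (12.5% of all genes), with 0 called and a median of -0.42.

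Stress, conjugation and glucose genes gave 0 calls among 21, 28 and 20 members, with medians of 0.059, -0.29 and -0.069. Of genes of the integrated stress response, the transcription factor Atf5 stood at 161, 115 and 222 FPKM on WD and 87.2, 48.2 and 38.6 on chow (1.53 ± 0.43, adjusted p = 0.154). Gdf15, a circulating stress hormone that lowers food intake, stood at 46.2, 85.8 and 76.4 on WD and 25.6, 11.6 and 18.5 on chow (1.86 ± 0.54, adjusted p = 0.163), and the diets did not overlap in either gene. The glutathione transferase Gsta2 stood at 8.96, 16.6 and 15.3 on WD and 36.6, 62.2 and 55.1 on chow (-1.85 ± 0.39, adjusted p = 0.085). Pfkfb3, which makes an activator of glycolysis, stood at 1.62, 2.51 and 1.27 on WD and 6.66, 6.42 and 5.99 on chow (-1.42 ± 0.45, adjusted p = 0.188), and Pck1, which commits to glucose production, at 809, 629.5 and 595 on WD and 1057, 1034 and 1967 on chow (-0.94 ± 0.27, adjusted p = 0.157). Each of these 3 was lower in every WD liver.

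The largest log2 values on WD were not calls. Mup10 and Mup13, major urinary proteins picked after their values were seen, stood at 3.55 and 3.41 (adjusted p = 0.32 and 0.183). Mup13 stood at 837, 145 and 174 FPKM on WD and 16.5, 6.37 and 135 on chow, and KO chow replicate 3 came close to the WD livers. Mup genes are near-identical copies whose reads a counter can split, so their values are uncertain.

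Against the response of livers labelled WT, which was measured on separate mice, the direction in KO livers was mostly shared. Of the 59 genes called in KO livers, 54 had the same sign in WT livers and 44 were called there in the same direction, 11 of the 21 rises and 33 of the 38 falls. In WT livers 1363 genes (9.72%) were called higher and 1330 (9.49%) lower. Of these 2693 genes, 2220 (82.4%) had the same sign in KO livers, against 65.0% of all genes. Those called higher in WT had a median log2 fold change of 0.17 in KO livers and 0.81 in WT livers, and those called lower -0.18 in KO and -0.56 in WT. The WT values were chosen for their size and the KO values were not, so the 2 medians are not on an equal footing.

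The fall of cholesterol synthesis was seen in livers of both labels, and no difference between the genotypes' responses was called there. In Sqle the difference of the responses, KO minus WT, was -0.30 ± 0.53 (SE, adjusted p = 0.82) and in Msmo1 0.28 ± 0.43 (adjusted p = 0.789). The list's median was -1.55 in KO livers and -2.02 in WT livers. Abcg8 stood at 1.76 ± 0.16 in KO livers and 0.52 ± 0.16 in WT livers, and the difference of 1.24 ± 0.23 lay just above the threshold (adjusted p = 0.05). Abcg5 stood at 1.97 ± 0.14 in KO livers and 0.999 ± 0.14 in WT livers (difference 0.97 ± 0.20, adjusted p = 0.068). A miss does not show that the responses are alike.

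The difference between the responses was called in 77 genes (0.549%), of which 59 were lower and 18 higher in the KO response. All 59 of the first kind were called higher on WD in WT livers, with a median log2 fold change of 0.0077 in KO livers and 1.60 in WT livers. These 59 genes were chosen by the difference of the responses, so a gap between the 2 medians was built in by that choice. They included 4 of 16 markers of lipid-associated macrophages, 3 of 29 matrix genes, 3 of 10 duct markers and 1 of 12 stellate markers. Over all genes the count in this direction was 59 of 14019. Gpnmb stood at 0.33 ± 0.33 in KO livers and 4.36 ± 0.33 in WT livers, where it reached 34.9, 16.1 and 39.4 FPKM on WD and 0.225, 0.859 and 0.261 on chow (difference -4.03 ± 0.46, adjusted p = 0.00671). Cd63, a lysosomal membrane protein, stood at 0.13 ± 0.27 in KO livers and 2.87 ± 0.27 in WT livers (difference -2.74 ± 0.39, adjusted p = 0.0182), and Epcam, a duct cell adhesion protein, at 0.0072 ± 0.11 in KO livers and 1.57 ± 0.11 in WT livers (difference -1.57 ± 0.16, adjusted p = 0.00238). Both were picked after their values were seen. Of the 18 higher in the KO response, 16 were called lower on WD in WT livers. Hsd3b5, a male-biased steroid dehydrogenase, stood at 312, 101 and 138 FPKM in KO WD and 113, 74.9 and 54.9 in KO chow livers, against 0.0804, 1.16 and 1.24 in WT WD and 74.9, 58.3 and 78.4 in WT chow livers (difference 6.42 ± 0.60, adjusted p = 0.00164).

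Only 3 of the 77 were among the 59 genes called in KO livers, which were Mir3058, Gm15788 and Cbx2. Cbx2 stood at 0.70 ± 0.12 in KO livers and -0.24 ± 0.12 in WT livers (difference 0.94 ± 0.17, adjusted p = 0.0488). The count of 77 was 14 with edgeR and 528 with DESeq2, 15 to 37 without any one KO liver, and 23 to 330 without any one WT liver. It was 330 without WT WD replicate 2, which held a summed 1689 FPKM of acinar genes, 291 without WT chow replicate 2, which held 5.67 FPKM of acinar and 0.380 FPKM of muscle genes, and 23 without WT chow replicate 3, which held 187.3 FPKM of muscle genes. Since Mrs2 did not separate the WD livers by label, these are differences between the livers labelled KO and WT.

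**Figure D4:**
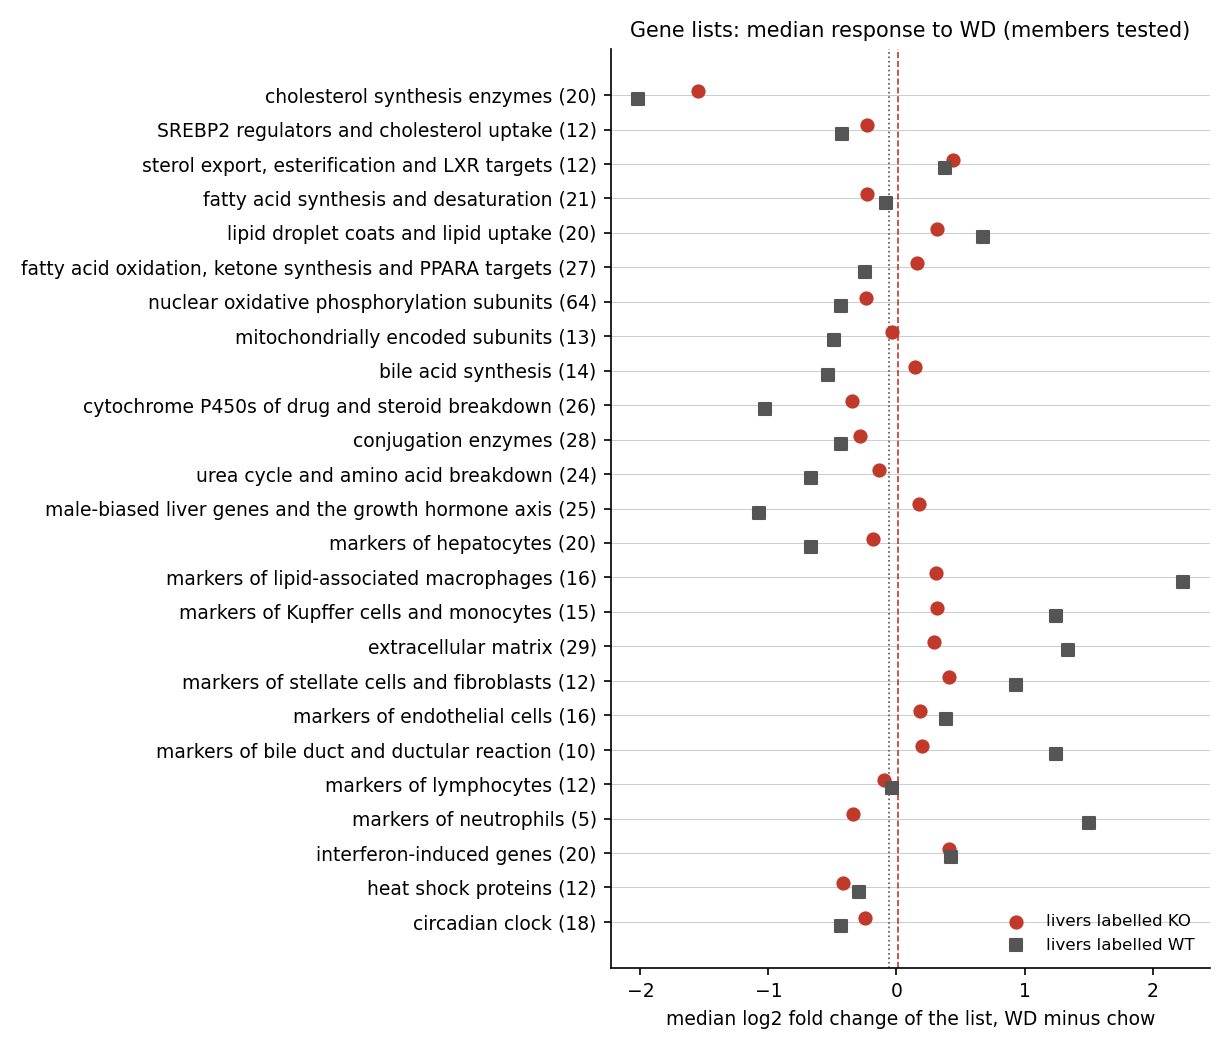
Median log2 fold change of WD over chow (horizontal axis) over the tested members of 25 of the 44 gene lists, picked with their values known (number of members in brackets), in livers labelled KO (red circles) and WT (grey squares). Dashed and dotted lines mark the medians of all genes in KO (0.012) and WT (-0.055), and the markers of lipid-associated macrophages lie at 0.31 in KO and 2.23 in WT.

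**Figure D5:**
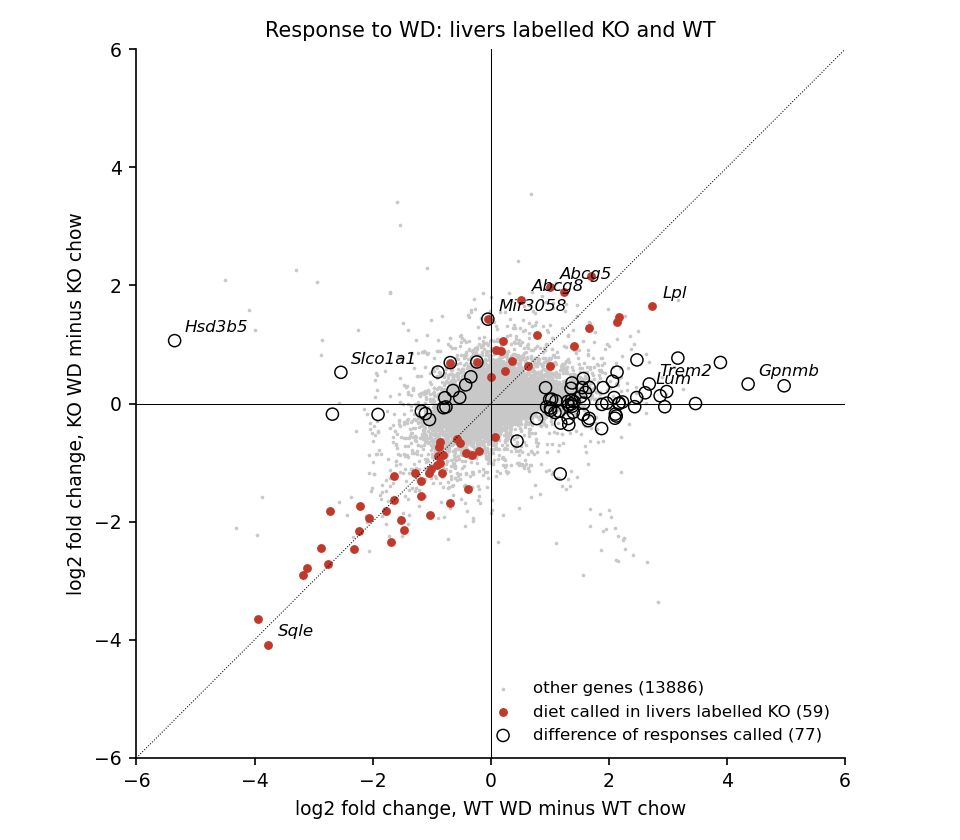
Log2 fold change of WD over chow in livers labelled KO (vertical axis) against that in livers labelled WT (horizontal axis), 1 point per gene, with the line of equal response dotted. The 59 genes called in KO livers are red, and rings mark the 77 genes called for a difference of responses, most of which lie near 0 on the KO axis and far from 0 on the WT axis.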

How the data were processed

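Liver RNA of the 12 mice was read as poly-T selected, paired-end libraries. The authors deposited FPKM per gene (fragments scaled by gene length and a size for each library), made with HISAT2 2.0.5 on mm10. DESeq2 1.20.0 is named too in the submitters' processing notes. Which program counted reads, and whether strand was used, is not given in the sources used here. Whole reads were recovered from the FPKM steps: 254988 of 254988 values above 0 (100%) came out whole within 0.01 reads, and 40476 of 40476 raw counts that the authors deposited for the same genes and libraries were equal. The library size that FPKM divides by was 0.774 to 0.828 of the recovered reads in KO livers. It was 0.980 to 1.07 of them in WT WD livers and 0.769 to 0.854 in WT chow livers. 28 other columns of per-sample values were not used.

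log2(FPKM + 1) of 14019 genes with a mean of at least 0.5 FPKM over the 12 livers was fitted in limma 3.58.1 (R 4.3.3; trend and robust prior, 4 groups sharing 1 estimate of the spread, no covariate). Contrasts were KO WD minus KO chow, WT WD minus WT chow, and their difference, each with Benjamini-Hochberg adjustment over all 14019 genes and a threshold of 0.05. The recovered reads were also tested with edgeR 4.0.16, which called 68 genes in KO livers, and DESeq2 1.42.0. Some members counted in the lists are not reported here by name. Summed levels and lists are descriptions with no test.

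Named are the 15 largest called falls, the 14 eligible called rises (no overlap, at least 3 FPKM in the higher group, no clone name), Mrs2, cholesterol and SREBP2 genes, and up to 5 members of each list with the smallest p. Gpnmb, Trem2, Nr1h3, Nudt4, Gpld1 and the genes said so in the text were chosen after their values were seen. The members and the 44 lists were chosen with earlier results of these data known. Each mouse is 1 library, and replicate pairs differed by more than sampling noise. Exonic overlaps use the GENCODE annotation of that build.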

Additional observations from a re-analysis of the deposited data

Results flagged for a closer look

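These 10 genes were picked out because the diet response of livers labelled KO differed from that of livers labelled WT by the limma test of the difference, KO minus WT on the log2(FPKM + 1) scale. Hsd3b5, a male-biased steroid dehydrogenase, differed by 6.42 (adjusted p = 0.00164). Slco1a1, a male-biased anion transporter, differed by 3.07 (adjusted p = 0.00164) and stood at 149, 125 and 133 FPKM in KO WD and 98.9, 111 and 74.1 in KO chow livers, against 9.15, 9.35 and 10.97 in WT WD and 62.7, 45.7 and 81.95 in WT chow livers. In both genes the 3 WT WD livers were the lowest of the 12, and the difference was called under 20 of 21 alternatives, all but the replicate block.

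Gpnmb of lipid-associated macrophages differed by -4.03 (adjusted p = 0.00671), and the difference was called under 17 of 21 alternatives. Trem2, a lipid receptor of the same cells, differed by -2.35 (adjusted p = 0.0394), called under 7 of 20. Pdgfrb, a growth factor receptor of stellate cells, differed by -1.14 (adjusted p = 0.0159), called under 15 of 20. The matrix protease gene Mmp2 differed by -1.68 (adjusted p = 0.0394), called under 7 of 20, and the matrix proteoglycan gene Lum by -2.43 (adjusted p = 0.0394), called under 6 of 21.

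Mir3058 differed by 1.48 (adjusted p = 0.0367), called under 7 of 21, and it rests on few reads. Gm15788, an antisense gene of which 13.9% of the exonic bases lie opposite Pxmp2, differed by 1.38 (adjusted p = 0.00803), called under 18 of 20. Cbx2 differed by 0.94 (adjusted p = 0.0488), called under 5 of 20. Mrs2 did not mark the WD livers by genotype, so each difference is between livers as labelled. Samples within a group were not screened for outlying values, since each group has 3.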

How the results depend on the processing

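Of the 59 genes called in KO livers, 13 were called under all 22 alternatives. The count was 34 with no filter on low values, 633 with DESeq2, 383 with library weights and 16 with the replicate number as a block. It was 24 to 53 without any one KO liver and 45 to 136 without any one WT liver, the last set added after seeing the data. With a pseudocount of 0.1, a filter at 5 FPKM, edgeR, median-of-ratios scaling, quantile normalization and the 6 KO livers alone it stayed between 41 and 68. The genes were not all the same. Of the 59, 26 were still called in the 6 KO livers alone, 41 with quantile normalization and 50 with edgeR. With the pseudocount of 0.1 it was 57, with median-of-ratios scaling 59, and with the filter at 5 FPKM all 42 that passed it. The 77 genes called for a difference of responses numbered 13 with a pseudocount of 0.1, 50 with no filter, 6 with a filter at 5 FPKM, 14 with edgeR, 528 with DESeq2, 154 with library weights and 0 in limma with the replicate block, where 1869 had an unadjusted p under 0.05. They numbered 15 to 37 without any one KO liver and 23 to 330 without any one WT liver. The cause was not tested.

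Whether equal replicate numbers pair the livers could not be tested with so few livers per group. Within a group, deviations from the group mean depend on each other. The deviations of equally numbered KO livers correlated across genes at 0.0212, -0.0454 and -0.1263, and not every liver correlated best with its own number. Of the 59 genes, 15 were still called with the block.

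Mrs2, never called, ran between -0.0036 without KO WD replicate 2 and 0.14 without KO WD replicate 1. Depth limits short or low genes such as Smim22 and Mir3058, which rest on few reads.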

Other observations

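Transporters of bile acids and organic anions gave 0 calls among 12. Abcb11, the bile salt export pump, stood at 226, 132 and 203 FPKM in KO WD livers and 117, 88.97 and 88.8 in KO chow livers (log2 fold change 0.90 ± 0.32, limma adjusted p = 0.229). Slco1a4, a hepatic uptake transporter of organic anions, stood at 3.303, 11.5 and 6.702 on WD and 17.6, 31.2 and 20.1 on chow (-1.64 ± 0.36, adjusted p = 0.0944). The diets did not overlap in either. Of 14 genes of bile acid synthesis none was called, and the bile acid receptor Nr1h4 stood at 68.9, 75.4 and 66.05 on WD and 80.4, 101 and 99.3 on chow (-0.41 ± 0.16, adjusted p = 0.259).

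Apoa4, an apolipoprotein, stood at 80.9, 125 and 253 FPKM on WD and 27.1, 42.5 and 54.5 on chow (1.76 ± 0.46, adjusted p = 0.135), with 69.8% of its exonic bases shared with other genes. Serpina3m, of the acute phase list, stood at 203, 235 and 229 on WD and 318, 324 and 321 on chow (-0.53 ± 0.11, adjusted p = 0.0779), with narrow ranges within each diet. Cfd, adipsin, known from fat cells, stood at 4.99, 52.5 and 60.6 on WD and 3.204, 6.801 and 3.03 on chow (2.41 ± 1.03, adjusted p = 0.298), high in 2 of the 3 WD livers. All 7 female-biased genes that passed the filter were below 0, with 0 called and wide ranges, as in Cyp2b9, picked after its values were seen, at 0.338, 9.55 and 3.27 on WD and 7.54, 45.3 and 1.83 on chow. Gtpbp4-ps1, a pseudogene also picked after its values were seen, stood at 13.7, 11.2 and 7.86 on WD and 245, 98.5 and 298 on chow (-4.06 ± 0.75, adjusted p = 0.0556).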
